A study of Mus musculus with 11 samples.

Results

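The set comprised 7 genes, Otx2, Ttr, Enpp2, Clic6, Kl, Folr1 and Aqp1, which were taken by their symbols from the 55421 genes listed in the count files. All 7 are used as markers of the choroid plexus, the tissue that secretes cerebrospinal fluid into the brain ventricles, and the question was whether Otx2 followed the other 6 from library to library. The data were ribosome-bound RNA from whole cerebellum of mice at postnatal day 56, pulled down through an HA-tagged copy of the ribosomal protein Rpl22 that Pcp2Cre switches on in Purkinje cells. The 4 knockout mice carried Pcp2Cre, the tagged ribosome and floxed alleles of Tie2 (Pcp2Cre;Tie2flox/flox;Rpl22HA/HA), and the 7 control mice carried Pcp2Cre and the tagged ribosome without floxed Tie2 (Pcp2Cre;Rpl22HA/HA), so both groups had Cre and the tag. The Cre line is constitutive, and input RNA of the pull-downs was not analysed here. Batch 1 held knockouts F371 and M374 and control M379, batch 2 held knockout M390 and control M386, and batch 3 held knockout M456 and controls F473, M476, M477, M479 and M480. The labels name each library by a separate animal tag and say nothing more on how the replicates were raised, so p-values measure the spread between these libraries.

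The choroid plexus of the fourth ventricle lies against the cerebellum. Its epithelium is known for making transthyretin (Ttr), for carrying folate by the receptor encoded by Folr1, for water movement through the channel encoded by Aqp1, and for the secreted enzyme autotaxin (Enpp2). Otx2 encodes a homeodomain transcription factor that is needed to form and maintain this epithelium and that also acts in early granule cell precursors of the cerebellum. None of these genes is among the usual markers of the Purkinje cells that the pull-down targets.

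Knockout libraries held 2583227 to 4199299 reads in genes and control libraries 4087197 to 5142671. Summed levels of 14 Purkinje cell markers were 5712 to 7975 CPM (reads of a gene relative to its library total, with TMM scaling) across knockouts, against 5817 to 6829 CPM across controls, and 5 of the 14 rose, among them Foxp2, Pvalb and Car8, while 1, Lhx1, fell. Tek, which encodes Tie2, had 0, 7, 0 and 14 reads in knockouts F371, M374, M390 and M456, against 0 to 40 reads in the controls. At these counts Tek could not check the genotype labels (log2 fold change 0.87 ± 0.95 SE, edgeR adjusted p = 0.522). A count of 3 reads, taken as the detection floor, corresponds to 0.705 to 1.2 CPM in single knockout libraries and 0.592 to 0.719 CPM in single control libraries. Floors and intervals cover counting error only.

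Otx2 (ENSMUSG00000021848) lies on chromosome 14 from 48656781 to 48667644 in GRCm38, on the minus strand, and the RefSeq promoter table of GRCm38.p6 holds 4 start windows for it, each from 250 bases before to 50 bases after a start. A pair of them is shown because Otx2 is the gene on which the comparison turns. The letters TAATCC, the core read by homeodomains of the Otx type, were searched on both strands and are printed in capitals where found. The start farthest upstream, chr14:48667595-48667894, held no match.
Otx2 outer start, minus strand: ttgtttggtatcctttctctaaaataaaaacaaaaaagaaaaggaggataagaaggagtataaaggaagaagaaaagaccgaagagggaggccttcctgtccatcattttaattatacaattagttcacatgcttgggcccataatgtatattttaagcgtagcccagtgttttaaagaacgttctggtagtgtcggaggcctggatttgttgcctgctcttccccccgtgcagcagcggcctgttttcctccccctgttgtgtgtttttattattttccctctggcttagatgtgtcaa
Otx2 inner start, minus strand: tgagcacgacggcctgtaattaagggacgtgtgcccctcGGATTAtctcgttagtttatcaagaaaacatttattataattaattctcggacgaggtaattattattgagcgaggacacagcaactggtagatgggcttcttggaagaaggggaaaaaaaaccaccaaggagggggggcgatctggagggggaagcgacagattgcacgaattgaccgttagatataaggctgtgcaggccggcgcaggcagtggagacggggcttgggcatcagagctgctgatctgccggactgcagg
The inner start, chr14:48665060-48665359, held 1 match, written GGATTA since it reads on the opposite strand, beginning at base 40 of the window. At least 1 match was present in 7.06% of the 32851 windows of the table. The Otx2 windows not shown, chr14:48667459-48667758 and chr14:48662685-48662984, held no match, and the latter lies inward of the start called inner here. The single windows of Kl and Aqp1 held none. Windows were matched for Otx2, Kl and Aqp1, or 3 of the 7 members, and Ttr was left out of the search. A match is a description of letters only.

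Otx2 was higher in each knockout than in every control of the same batch. It had 2.02, 5.02, 14.1 and 16.4 CPM in knockouts F371, M374, M390 and M456, from 7, 17, 60 and 41 reads. In the 7 controls its lowest, median and highest values were 0.23, 1.95 and 5.17 CPM, from 1 to 23 reads. The groups overlapped when batches were set aside, since controls F473, M476 and M479 of batch 3 lay above knockout F371, and F473 also above knockout M374. Knockouts averaged 9.38 ± 6.94 CPM, against 2.31 ± 1.92 CPM for controls (SD, n = 4 and 7). The log2 fold change with batch in the model was 3.17 ± 0.66 (SE; edgeR quasi-likelihood, adjusted p = 0.00504 by Benjamini-Hochberg over all genes tested). The mean within-batch difference in log2 CPM was 2.89, and its exact permutation p, two-sided, was 0.0278, which is also the lowest that 36 arrangements can give. In bulk libraries such as these, more cells of a type and more RNA per cell cannot be told apart.

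The size of the Otx2 rise rested on few reads in the controls. In batch 1 the knockouts had 24 reads against 2 in control M379, a ratio of 7.31 after scaling for depth (95% exact binomial interval 1.82 to 63.8). In batch 2 knockout M390 had 60 reads against 1 in control M386, a ratio of 61.3 (10.6 to 2460). In batch 3 knockout M456 had 41 reads against 72 in 5 controls, a ratio of 5.32 (3.53 to 7.91). Otx2 was thus higher in the knockouts of all 3 batches, and the interval was narrowest in batch 3. These intervals cover counting error and leave out the spread between animals, and M456 was the only knockout of batch 3. Without knockout M456 the log2 fold change was 4.18 and the adjusted p 0.053, so the call was lost. Adding the library total to the model lost it too, at 4.53 (adjusted p = 0.238), where 3 of 4 knockouts had a smaller total than any control. The fold change was 2.53 without knockout M390 or without control M386, and 2.0 with no batch term. Over these and 16 further alternatives Otx2 stayed higher in the knockouts, with adjusted p between 6.75e-05 and 0.238, and passed in 19 of 21. Otx2os1, the antisense neighbour of Otx2, had 0 reads in the knockouts and 7 in the controls; the strand setting of the counting is not given in the sources used here.

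**Figure D1:**
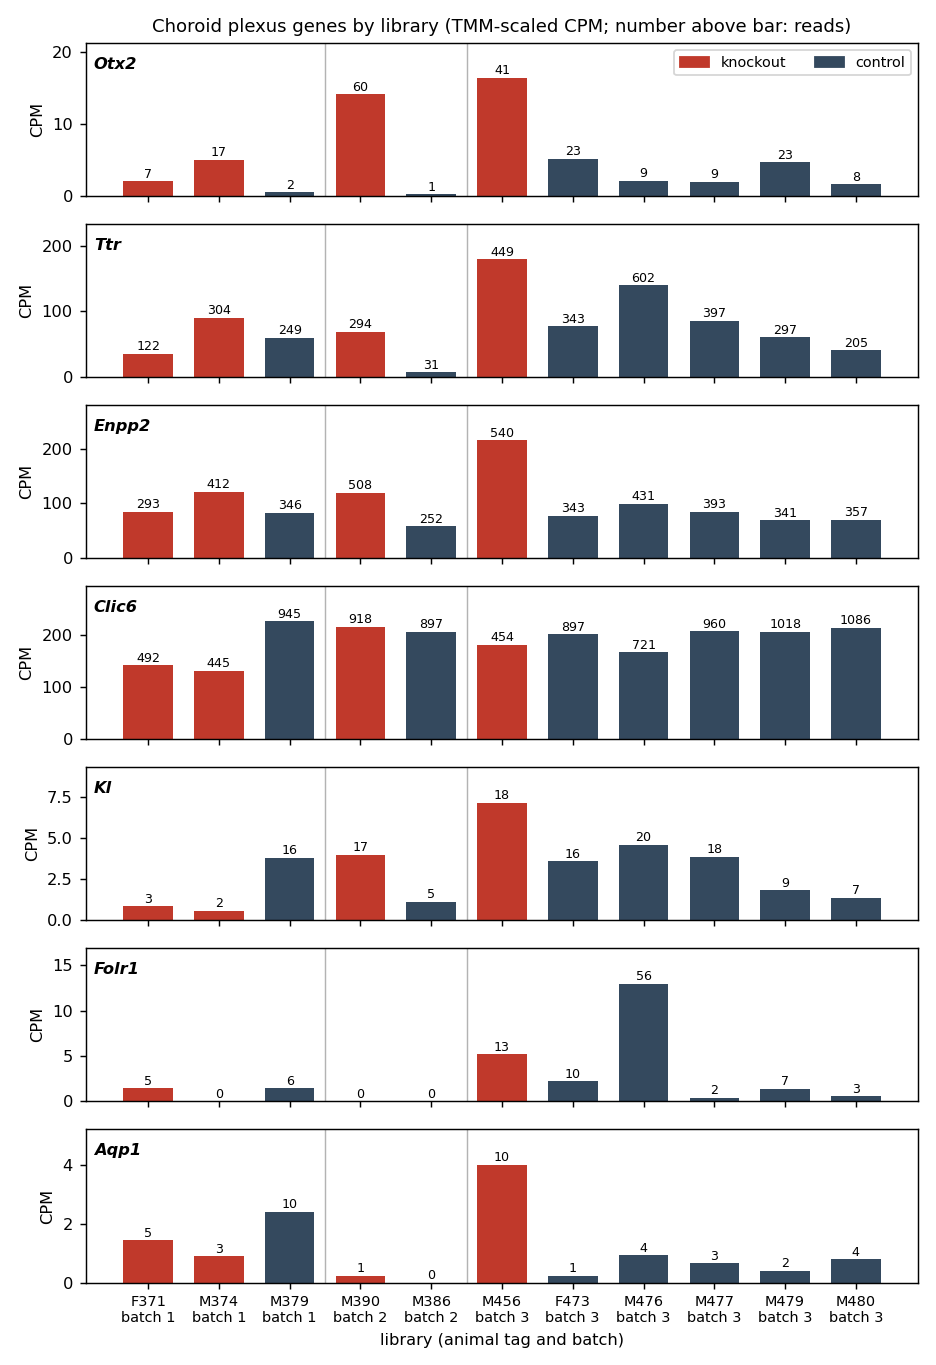
Levels of the 7 choroid plexus genes in each library as TMM-scaled CPM, with the read count above each bar, knockouts in red and controls in dark blue, ordered by batch (vertical lines). Otx2 stands above the controls of its own batch in all 4 knockouts, while Clic6 is near 200 CPM in most libraries and Folr1 is highest in control M476.

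Of the 7 members, 5 passed the filter on low counts, and 2 of those, Otx2 and Enpp2, rose in the knockouts while 0 fell (edgeR; 4 of the 5 had an unadjusted p under 0.05, and DESeq2 called 2). Over all 13375 genes tested, 24.4% were called, 10.9% higher and 13.4% lower in the knockouts. The median log2 fold change was 0.97 over the 5 tested members and -0.02 over all tested genes. Folr1 and Aqp1 reached the filter's 2.38 CPM in 1 knockout and 1 control each and were not tested, while Otx2 reached it in 3 knockouts and 2 controls and so passed through both groups. None of the 7 had groups that did not overlap, where 13.0% of tested genes had. Without knockout M456 the count of called members was 0, and 335 genes were called over the whole table, against 3257 with all libraries (522 without control M379).

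Enpp2, the secreted enzyme that makes lysophosphatidic acid, was the other member that rose. On chromosome 15 (54838901 to 54952789, ENSMUSG00000022425), it had 84.6, 122, 119 and 216 CPM in knockouts F371, M374, M390 and M456, and 57.9 to 99.7 CPM with a median of 77.1 in the controls. Each knockout again lay above every control of its batch, in batch 1 by a narrow margin for F371 over M379 at 82.9 CPM. Enpp2 gave a log2 fold change of 0.97 ± 0.19 (SE; adjusted p = 0.00359, edgeR), with within-batch log2 ratios of 0.31, 1.04 and 1.42. It no longer passed once knockout M456 was left out (0.62, adjusted p = 0.143) or the library total was added to the model (0.45, adjusted p = 0.484). Oligodendrocytes, the myelin-forming glia, also express Enpp2. Summed levels of 14 oligodendrocyte markers were 422 to 1068 CPM across knockouts, against 368 to 805 CPM across controls, and 3 of 13 tested, among them Gjc3 and Cldn11, rose while 0 fell. The within-batch log2 ratios of the summed level were 0.85, 0.20 and 0.64, and the part of these cells in the Enpp2 result was not tested.

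Ttr, which encodes the carrier of thyroid hormone and retinol-binding protein and is an abundant choroid plexus transcript, differed less evenly. Its gene (ENSMUSG00000061808) lies on chromosome 18 from 20664209 to 20674326. It had 35.2, 89.8, 69.1 and 179 CPM in knockouts F371, M374, M390 and M456. The controls held 7.13 CPM in M386, a median of 60.4 CPM, and 139 CPM in M476. In batch 1 knockout F371 lay below control M379, at 59.7 CPM, and knockout M374 above it, so the within-batch log2 ratio was 0.07, against 3.19 in batch 2 and 1.15 in batch 3. Over all genes the fold change, 1.16 ± 0.42 in log2 (SE), missed the threshold (edgeR adjusted p = 0.0586), and the exact permutation p within batches was 0.167. It passed in 5 of 21 alternatives, among them without knockout F371 (1.46, adjusted p = 0.0206) and without control M476 (1.28, adjusted p = 0.0343), over a range of adjusted p from 0.0105 to 0.675. Without batch 2 it was 0.72 (adjusted p = 0.149).

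Clic6, a chloride intracellular channel family gene, was the member with a negative fold change. On chromosome 16 (92498147 to 92541241, ENSMUSG00000022949), it had 142, 131, 216 and 181 CPM in knockouts F371, M374, M390 and M456, and 167 to 226 CPM across controls with a median of 207. The batch 1 knockouts were low and the other knockouts within the control range. Clic6 gave a log2 fold change of -0.29 ± 0.13 (SE; adjusted p = 0.114, edgeR). It passed without knockout M390 (-0.38, adjusted p = 0.0408) and without control M386 (-0.37, adjusted p = 0.0423), and was -0.04 without control M379 (adjusted p = 0.867). Kl (ENSMUSG00000058488, chromosome 5 from 150952607 to 150993817) encodes klotho, the co-receptor for the hormone FGF23, and had 0.866, 0.591, 3.99 and 7.19 CPM in the knockouts, from 3, 2, 17 and 18 reads, and 1.15 to 4.63 CPM across controls. Its within-batch log2 ratio was -1.82 in batch 1 and 1.45 and 1.11 in batches 2 and 3, and its fold change, 0.30 ± 0.68 in log2 (SE), missed the threshold (edgeR adjusted p = 0.775). Without knockout M456 it was -0.62, so no direction is given for Kl.

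Folr1 and Aqp1, which mark the transport functions of the epithelium, were low in most libraries. Folr1 (ENSMUSG00000001827, chromosome 7 from 101858331 to 101870788) had 5, 0, 0 and 13 reads in knockouts F371, M374, M390 and M456, and 0 to 56 reads in the controls, of which 56 were in M476 and at most 10 in any other control. Aqp1 (ENSMUSG00000004655, chromosome 6 from 55336299 to 55348555) had 5, 3, 1 and 10 reads in the knockouts and 0 to 10 in the controls, with 10 in M379. In both genes knockout M456 was the highest of the knockouts, and in batch 2 both were at 0 or 1 read in either library, so no ratio is given there.

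Set side by side, Otx2 and the other members gave different values within each batch. The within-batch log2 ratio, knockout over control, was 2.04, 4.32 and 2.23 for Otx2 in batches 1, 2 and 3, and -0.30, 0.58 and 0.69 for the summed level of the other 6 members. The difference was 2.34, 3.74 and 1.54, or 2.54 on average. The pooled SD between libraries of one group and batch was 0.681. It comes from the 2 knockouts of batch 1 and the 5 controls of batch 3 alone, so it holds no spread from batch 2. Most of the summed level is Clic6 and Enpp2. Without them the sum was 38.97, 91.25, 73.32 and 195.7 CPM in knockouts F371, M374, M390 and M456. It was 67.32 CPM in control M379, 8.277 CPM in control M386 and 43.23 to 157.8 CPM in the batch 3 controls. Against Ttr alone the Otx2 ratio was larger by 1.97, 1.13 and 1.08 with the pseudocount of 0.5 CPM, and by 2.81, 2.66 and 1.25 without it, where the controls of batches 1 and 2 held 2 and 1 reads of Otx2. For the level of Otx2 minus that of Ttr, a pair chosen after the values were seen, the mean was -3.38 ± 0.797 in the knockouts and -4.56 ± 1.06 in the controls on the log2 CPM scale (SD, n = 4 and 7). Within batches the knockouts were higher by 1.43 (exact permutation p = 0.0278, two-sided, again the lowest value possible), and 4 of 4 knockouts exceeded every control of their batch. The margin in batch 3 was narrow, as M456 had 41 reads of Otx2 beside 449 of Ttr and control M479 had 23 beside 297.

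**Figure D2:**
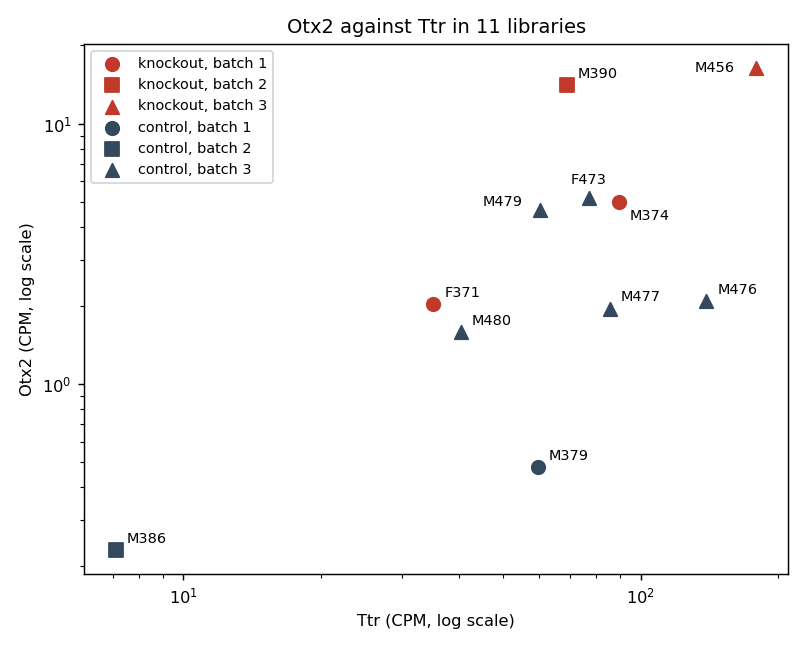
Level of Otx2 against level of Ttr in the 11 libraries, both in CPM on log axes, with knockouts in red, controls in dark blue and the batch as the marker shape. Knockout M390 held 14.1 CPM of Otx2 at 69.1 CPM of Ttr, while control M476 held 2.08 CPM of Otx2 at 139 CPM of Ttr.

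Single libraries of different batches also lay apart. Knockout M390 had 60 reads of Otx2 beside 294 of Ttr and 0 of Folr1, so that Otx2 made up 16.9% of the reads of Otx2 and Ttr together (95% exact binomial interval 13.2 to 21.3%). Control M476, of batch 3, had 9 reads of Otx2 beside 602 of Ttr and 56 of Folr1, a share of 1.47% (0.676 to 2.78%). Control M386, of the same batch as M390, had 1 read of Otx2 beside 31 of Ttr. Its share was 3.12% (0.0791 to 16.2%), an interval that overlapped that of M390. The share was 5.43%, 5.3% and 8.37% in knockouts F371, M374 and M456. It ran from 0.797% to 7.19% in the controls, and those of F473 (6.28%) and M479 (7.19%) lay between the knockouts. Some order was still shared, since M456 was the highest library of all 11 for Otx2, Ttr and Enpp2, and M386 the lowest for those 3.

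Among the 7 controls alone, Otx2 was compared with each of the other 6 members, and 0 of 6 correlations passed after adjustment (0 also before it; exact permutation test). With Ttr, Pearson's r was 0.641 (exact permutation p = 0.116, adjusted p = 0.665) and Spearman's rho 0.679 (exact permutation p = 0.11, adjusted p = 0.5). Without M386 and M476, the libraries farthest from the median of Ttr, r was 0.314. With Folr1 r was 0.437 and rho 0.607 (exact permutation p = 0.332 and 0.167), and with Enpp2, Kl, Aqp1 and Clic6 r was 0.28, 0.277, -0.165 and -0.292. These values pool controls of 3 batches, and the single controls of batches 1 and 2, M379 and M386, were the lowest for Otx2. No correlation is given within a batch, since batch 3 holds 5 controls, under the 6 taken as the least.

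Across all 11 libraries, the genes closest to Otx2 by Pearson's r of batch-centred log2 CPM were Elavl2, a neuronal RNA-binding protein gene, at 0.956, the kinase gene Sgk3 at 0.956, and Ehbp1, Rabgap1l and Guf1 at 0.945, 0.942 and 0.935. Of 12084 genes ranked, Enpp2 stood at place 240 (r = 0.783) and Ttr at 294 (r = 0.77), while Kl stood at 4273 (0.279) and Clic6 at 8086 (-0.366). This order depends on the batch centring. Without it r with Otx2 was 0.719, 0.509, 0.858, 0.73 and 0.336 for those 5 closest genes. It was 0.749 for Enpp2, 0.663 for Ttr, 0.37 for Kl and -0.174 for Clic6. The closest to Ttr were Ttc38 (0.978), Trim62 (0.928), Ccnyl1 (0.894), Ecrg4 (0.88), a secreted peptide precursor gene known from choroid plexus, and Ucp2 (0.878), with Enpp2 at place 29, Otx2 at 70 and Kl at 217. None of the 5 genes closest to one of the pair was among the 5 closest to the other. These values describe libraries that share genotype, depth and batch, and carry no test.

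Other genes of choroid plexus epithelium gave low counts. Of 30 listed, 11 passed the filter, 2 rose and 0 fell (edgeR; 3 had an unadjusted p under 0.05, and DESeq2 called 2), with 9 of 11 fold changes positive and a median log2 fold change of 0.36 against -0.02 over all genes. Igfbp2, an insulin-like growth factor binding protein gene that meningeal cells also express, rose by 1.68 ± 0.40 (SE, adjusted p = 0.0086), and the homeobox gene Msx1 by 2.13 ± 0.52 (adjusted p = 0.00989). Reads were found for 20, 17, 19 and 27 of the 30 genes in knockouts F371, M374, M390 and M456, and for 16 (M386) to 29 in the controls. A few genes, chosen after their values were seen, show the range. The potassium channel gene Kcnj13 had 0, 0, 0 and 11 reads in knockouts F371, M374, M390 and M456, against 1 to 8 in the controls. The keratin gene Krt18 had 0, 0, 0 and 9 reads in the same knockouts, against 0 to 16 in the controls. Knockout M390, with the most Otx2 reads of any library, thus had 0 reads of Kcnj13, Krt18 and Folr1, while it had 8 of the bicarbonate transporter gene Slc4a5, 7 of the potassium channel subunit gene Kcne2 and 6 of the tight junction gene Cldn2. Control M386 of the same batch was as low for Krt18 and Folr1, with 0 reads of each, and had 1 of Kcnj13. For Slc4a5, Kcne2 and Cldn2 that control had 3, 0 and 0 reads, fewer than M390. Slc4a5, Kcne2 and Cldn2 had 0 or 1 read in each of knockouts F371 and M374, and 10, 0 and 2 reads in M456. Leaving out the broadly expressed Spint2 and Cab39l, a choice made after the values were seen, the other 28 genes summed to 72.2, 66.1, 50.8 and 183 CPM in knockouts F371, M374, M390 and M456, and to 55.9 to 120 CPM across controls. Knockout M456 was above every control and M390 below every one of them. In batch 2 much of this sum was Steap1, with 79 of 216 reads in M390 and 107 of 243 in control M386. The place of M390 below M386 thus leans on that gene.

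**Figure D3:**
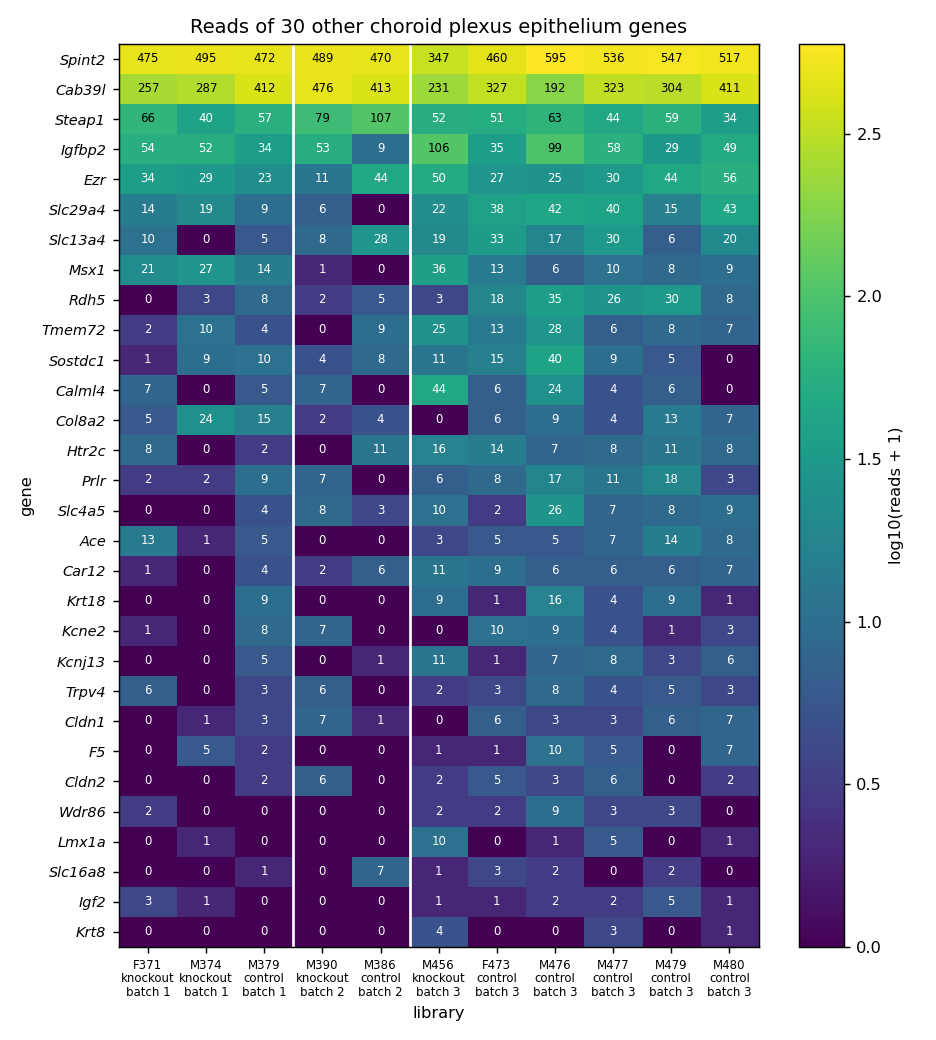
Reads of 30 other choroid plexus epithelium genes in each library, one gene per row and one library per column, coloured by log10(reads + 1) and grouped by batch (white lines). Most genes hold under 20 reads per library, and knockouts F371, M374 and M390 and control M386 hold reads for 16 to 20 of the 30 genes, while knockout M456 and the other 6 controls hold them for 26 to 29.

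Marker lists of other cells are given here beside Otx2, against 10.9% of all genes tested called higher and 13.4% called lower. Otx2 also acts in early granule cell precursors, a stage that the granule cell list does not single out. Of the 14 granule cell markers 9 rose and 0 fell, among them Zic1, Etv1, Neurod2 and Cbln1, with a median log2 fold change of 1.02. Their summed level was 604 to 1735 CPM across knockouts, against 444 to 903 CPM across controls, with within-batch log2 ratios of 1.11, 0.24 and 1.22. In batch 2 the Otx2 log2 ratio was 4.32, with 1 read in the control. Single granule cell markers ran from -1.68 (Slc17a7) to 0.734 (Grin2c) in that batch. Of the 14 granule genes, Etv1 stood closest to Otx2 over libraries, at place 384 (r = 0.752). Bergmann glia and astrocyte markers had 7 of 12 higher and 0 lower, among them Gdf10, Aqp4, Slc1a3 and S100b, with sums of 885 to 1681 CPM across knockouts, against 806 to 1019 CPM across controls and within-batch log2 ratios of 0.39, 0.13 and 0.87. Of 9 vessel markers tested 1 rose, the tight junction gene Cldn5 (1.14 ± 0.34 SE), with sums of 33.2 to 143 CPM across knockouts, against 23.7 to 158 CPM across controls and within-batch log2 ratios of 1.81, 0.47 and 0.54. Of 8 meningeal markers tested, Igfbp2 and the matrix gene Dcn rose and the GABA transporter gene Slc6a13 fell, with sums of 54.8 to 388 CPM across knockouts, against 49.4 to 229 CPM across controls and within-batch log2 ratios of 0.45, 0.02 and 0.76. The part of these cells in the Otx2 result was not tested.

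**Figure D4:**
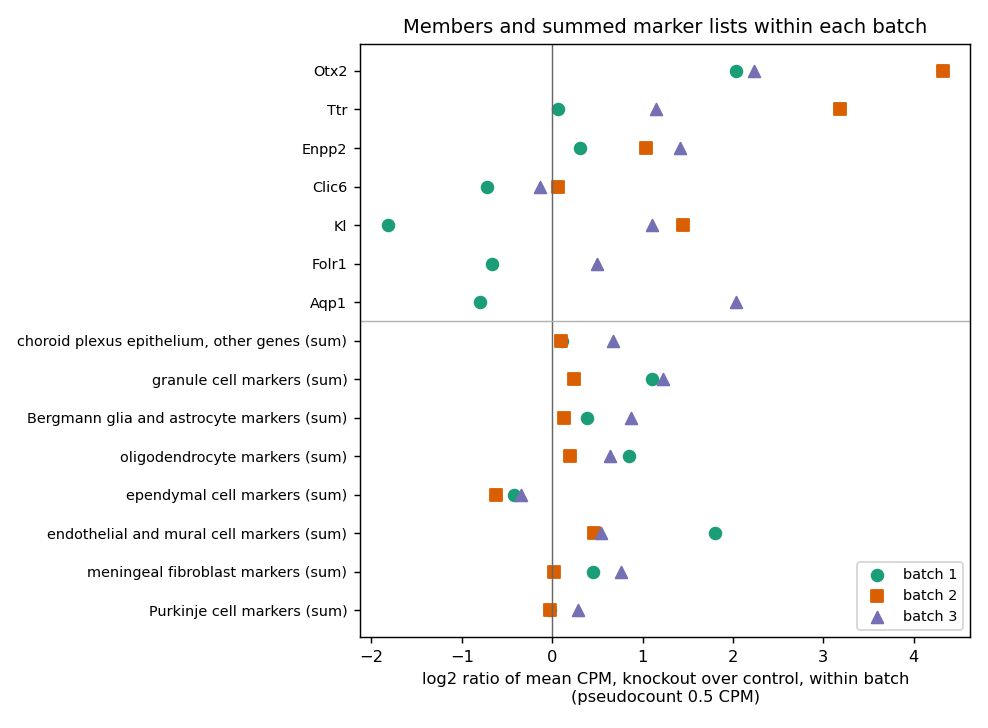
Within-batch log2 ratio of mean CPM, knockout over control, for the 7 members (upper rows) and for summed marker lists (lower rows), with one symbol per batch and a pseudocount of 0.5 CPM; no symbol is drawn where both groups had 3 reads or fewer. Otx2 is at 2.04 or more in each batch, and in each batch every other member and sum drawn lies below it. Single genes of the lists are not drawn, and some lay above Otx2, such as Flt1 (3.43) and Zic2 (3.11) in batch 1 and Calml4 (2.98) in batch 3.

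Counts for genes that work with the members are read against the 24.4% called over all genes tested. Among thyroid hormone and retinol genes, which handle the cargo of transthyretin, 2 of 11 rose and 1 fell. Dio2, the enzyme that activates thyroid hormone, rose by 2.06 ± 0.54 on the log2 scale (SE, edgeR adjusted p = 0.0143). Its within-batch log2 ratios were 2.02, -0.81 and 2.96, so it was lower in the knockout of batch 2. Among folate genes, partners of Folr1, 3 of 9 fell and 0 rose. Shmt1 of the folate cycle fell by 0.81 ± 0.16, the reduced folate carrier gene Slc19a1 by 1.29 ± 0.42 and the proton-coupled folate transporter gene Slc46a1 by 0.55 ± 0.19 on the log2 scale (SE, adjusted p = 0.00392, 0.0353 and 0.0455). In batch 2 the log2 ratios were -0.28 for Shmt1, 0.34 for Slc19a1 and 0.02 for Slc46a1, so the folate carriers were not lower in that knockout. The summed level of the list was 260 to 373 CPM across knockouts, against 403 to 466 CPM across controls, and these ranges did not overlap.

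In the other partner lists fewer genes passed. Of 6 lysophosphatidic acid receptor and phosphatase genes tested, which act on the product of Enpp2, 0 were called (edgeR; 2 had an unadjusted p under 0.05, and DESeq2 called 0). Of 5 klotho and FGF23 signalling genes 0 were called (0 at an unadjusted p under 0.05, and DESeq2 called 0). Of 5 aquaporin and CLIC relatives 1 rose, the astrocyte water channel gene Aqp4, by 1.42 ± 0.28 (SE, adjusted p = 0.00381). Of 4 homeobox genes tested 1 rose, En2, a patterning factor of the midbrain and hindbrain, by 1.55 ± 0.34 (adjusted p = 0.00616). Otx1 and Crx, the closest relatives of Otx2, had 1 and 0 reads in the knockouts and 2 and 2 in the controls.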

How the data were processed

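Each deposited file lists, for a single library, raw read counts by gene, made with STAR alignment to GRCm38 and HTSeq, per the submitters' processing notes. The sources used here give no versions, strand setting or treatment of duplicates. The 5 summary lines of each file name no gene and stayed out of totals (18.3% to 26.1% of alignments).

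Testing used edgeR 4.0.16 under R 4.3.3 (quasi-likelihood test, TMM scaling, filterByExpr on genotype, batch and genotype as terms, 7 residual degrees of freedom), with two-sided p-values adjusted by Benjamini-Hochberg over 13375 genes and a threshold of 0.05. SEs were derived from log2 fold changes and F statistics. DESeq2 1.42.0 was an alternative. The prior count was 2 for log2 CPM, and within-batch ratios had a pseudocount of 0.5 CPM. Exact permutations exchanged genotypes within batches. Group means are not adjusted for batch. Positions and promoters came from RefSeq tables of GRCm38.p6.

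Members, the 16 gene lists and tests were chosen with earlier results of these data known. All members were named, with up to 4 called genes of each other list by smallest p, and the 5 genes closest to Otx2 and to Ttr among those of at least 1 mean CPM with no predicted-gene symbol. Alternatives were other scalings and filters, no batch term, each library left out, animals tagged M only, batch 2 left out, the library total as a covariate and thinning. The difference between Otx2 and Ttr, the ratios with no pseudocount and the difference between Otx2 and the other members without M390 or M386 were added after the data were seen. Some genes that meet the naming rule are not reported here.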

Additional observations from a re-analysis of the deposited data

Results flagged for a closer look

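In all, 3 values stood far from the other libraries of their group, in 14 groups examined (7 genes in knockouts and in controls); chance marks about 1 group in 20. Folr1 in control M476 was 13.0 CPM, with the next control at 2.25 CPM. Clic6 in the same control was 167 CPM, below the next at 202 CPM. Aqp1 in control M379 was 2.40 CPM, with the next control at 0.925 CPM, from 10 and 4 reads. Control M476 was also the highest control for Ttr (139 CPM) and Enpp2 (99.7 CPM), while its Otx2, at 2.08 CPM, was near the control median.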

How the results depend on the processing

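With no batch term, the Otx2 log2 fold change was 2.0 and still passed. With the library total as a covariate 0 genes and 0 members were called by edgeR (1841 genes had an unadjusted p under 0.05; DESeq2 without that covariate called 4174), and Otx2 stood at 4.53. Leaving out 1 library at a time, called genes ranged from 335 (without knockout M456) to 4632, called members from 0 to 3, the Otx2 log2 fold change from 2.53 to 4.18, and Otx2 minus the summed other members from 1.94 (without knockout M390 or control M386, which leaves batches 1 and 3) to 3.04. Kl turned to -0.030 without batch 2 and to -0.88 with the library total, and ranged from -0.62 to 1.43 without single libraries. Otx2 minus the other members ranged from 2.45 to 3.16 under other scalings, the pseudocount of 0.1 CPM, the members' median and the sum without Ttr. It was 3.42 with no pseudocount. No version left Clic6 and Enpp2 out, so these values hold only for the members with those genes included. Against Ttr alone the difference was smaller in each batch, at 1.97, 1.13 and 1.08 in batches 1, 2 and 3. The cause of these changes was not tested. Leaving out M379, M390, M386 or M456 leaves a batch of 1 genotype, which then adds nothing to the contrast. Without M456 that batch is batch 3, so the contrast rests on batches 1 and 2. Depth limits Folr1, Aqp1 and the controls of Otx2, whose read counts in batches 1 and 2 were under the floor of 3.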

Other observations

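Ependymal cell markers, of the ciliated cells beside the choroid plexus, summed to 82.3 to 119 CPM across knockouts, against 125 to 153 CPM across controls, ranges that did not overlap. Most of that sum is Hdc, the histamine-forming enzyme gene, which fell by 0.63 ± 0.14 on the log2 scale (SE, edgeR adjusted p = 0.00711) and was the single one of 3 tested genes called. Hdc averaged 80.2 CPM in knockouts and 118 CPM in controls. Rsph1 and Cfap126, also tested, gave log2 fold changes of -0.21 and 0.56 and were not called. The gap between the sums is thus one of Hdc and is not read as one of the list. The list has 10 genes, and those not tested stayed under the filter. Of 5 red blood cell genes 0 were called (edgeR; 2 had an unadjusted p under 0.05, and DESeq2 called 0), with summed levels of 34.5 to 144 CPM across knockouts, against 40.9 to 71.7 CPM across controls.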
